A study of Mus musculus with 12 samples.

Results

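Marcks, Sap30, Tmem128 and Nrep are 4 protein-coding genes whose RNA differed between asynchronous and mitotic cells by other amounts in RPL12 mutant lines than in the wild-type line. They were selected on those differences in mitotic change, measured in these same libraries, from 10477 genes tested out of 51826 in the files. All 4 passed the filter on low counts. Because the values that chose them cannot also test them, the changes within single lines and the differences between lines are given as a description, with no test.

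The libraries came from 19DN cells, sorted as reporter-negative from 19PP, a B lymphoma line of the mouse. The parent line grew in a Rag2-/-γC-/- host from bone marrow carrying Cγ1-Cre, which is active in germinal centre B cells, and the Myc and P110* alleles behind a floxed stop, and Flp later removed its GFP and hCD2 reporters, so every group shares these alleles. The cells carried RPL12 WT, or RPL12 in which 1 serine was exchanged for alanine (S38A) or aspartate (S38D), and the labels do not say whether a line was 1 clone. Each line was sampled as asynchronous culture and as mitotic cells, which per the labels spent 8 h in nocodazole at 100 ng/mL and 10 min in fresh medium, and all cells were collected in cycloheximide at 100 µg/mL. The 3 lines in 2 states gave 6 groups of 2 libraries. State and drug cannot be told apart in this design, and nothing in the labels says that replicates were separate cultures, so p-values measure only the spread between these samples.

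MARCKS is a myristoylated protein that sits on the inner face of the plasma membrane, holds the lipid PIP2 there and binds actin. Phosphorylation by protein kinase C releases it. SAP30 is a subunit of the SIN3-HDAC complex, which removes acetyl groups from histones and represses transcription. TMEM128 is a membrane protein of poorly known function. NREP, also called P311, is a small intracellular protein first described in neurons and linked to TGF-beta production and to motility.

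Reads assigned to genes numbered from 3432875 to 6587997 per library, with a median of 5548100, and 3 reads corresponded to between 0.473 and 0.85 CPM (reads relative to the library total scaled by TMM, an edgeR method, in units of 1e+06). ERCC spike-ins made up 2.5% of gene reads on average in the WT asynchronous group and 3.09% to 3.4% in the other 5. Replicates differed most in S38D asynchronous cells, by a median of 0.28 (log2) over 7062 genes with at least 10 CPM, and next in WT mitotic cells, by 0.18, against 0.12 to 0.13 in the other groups. The targeted gene Rpl12 was read in every library, at 28.3 to 74.4 CPM, and reads at its 3′ end do not show the substitution. All 12 B cell markers had reads in every group, and their summed level was 8575 to 12466 CPM in asynchronous and 4641 to 6678 CPM in mitotic libraries. Of 12 T and NK cell markers 3 had any read, of 12 myeloid markers 6, and of 12 stromal, epithelial and erythroid markers 7. These lists summed to 2.19 to 7.42, 5.1 to 10.9 and 2.27 to 6.73 CPM per library. Cd3e, Itgam and Hba-a1 were at 0 reads throughout. Other members were read in every library: Klrb1c (9 to 43 reads), Fcgr3 (7 to 33), Cd68 (3 to 28) and Epcam (6 to 35). Averaged over states, Klrb1c and Epcam were higher in S38A than in WT (log2 1.06 and 0.89, edgeR adjusted p = 0.00636 and 0.0136).

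Marcks lies on chromosome 10 from 37133375 to 37138920 (GRCm38, minus strand) and has 2 exons. Sap30 lies on chromosome 8 from 57482707 to 57487860 (minus strand) with 4 exons, and Tmem128 on chromosome 5 from 38260185 to 38269634 (plus strand) with 5. No other gene in GENCODE M21 overlaps any of the 4, so strand does not bear on these counts as far as that annotation goes. Of the 51-base words in their transcripts, none of Sap30 or Tmem128 occur in transcripts of another gene. For Marcks, 12 other genes share at most 4 of its 3998 words each, so copies elsewhere could take few of its reads.

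Sap30 and Tmem128 had the most similar levels across libraries of any pair among the 4, a likeness that may follow from how the genes were chosen. The RefSeq table (GRCm38.p6) held promoters for these 2. They are shown so that a reader can look for shared elements, as the 250 bases before each start, 5′ to 3′, with capitals where 1 of 8 searched motifs was found on either strand.
Sap30 (chr8:57487861-57488110, minus strand): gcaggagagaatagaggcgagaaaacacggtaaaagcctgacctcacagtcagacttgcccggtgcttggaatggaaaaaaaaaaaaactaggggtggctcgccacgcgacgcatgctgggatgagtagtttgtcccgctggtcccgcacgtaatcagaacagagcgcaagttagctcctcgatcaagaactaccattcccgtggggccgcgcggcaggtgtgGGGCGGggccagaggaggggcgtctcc
Tmem128 (chr5:38259935-38260184, plus strand): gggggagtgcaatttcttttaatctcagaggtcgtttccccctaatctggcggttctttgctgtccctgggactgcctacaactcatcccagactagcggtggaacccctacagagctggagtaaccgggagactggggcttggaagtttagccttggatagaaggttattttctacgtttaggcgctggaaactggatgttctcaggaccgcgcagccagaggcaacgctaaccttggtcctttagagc
The single match was a GC box (GGGCGG) beginning 27 bases before the Sap30 start. That motif occurs in 32.7% of 32851 promoter windows of this length, and its letters partly overlap those of the E2F site searched. The other motifs were the CCAAT box (CCAAT, in 33.8% of windows), the E-box (CACGTG, 6.02%), the CHR element (TTTGAA, 16%), the E2F site (GGCGGGAA, 1.86%), the TATA box (TATAAA, 12.4%), the ETS site (CCGGAA, 12%) and the CRE (TGACGTCA, 1.55%). These letters are not in either window, which says nothing of the factors that bind such sites.

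**Figure D1:**
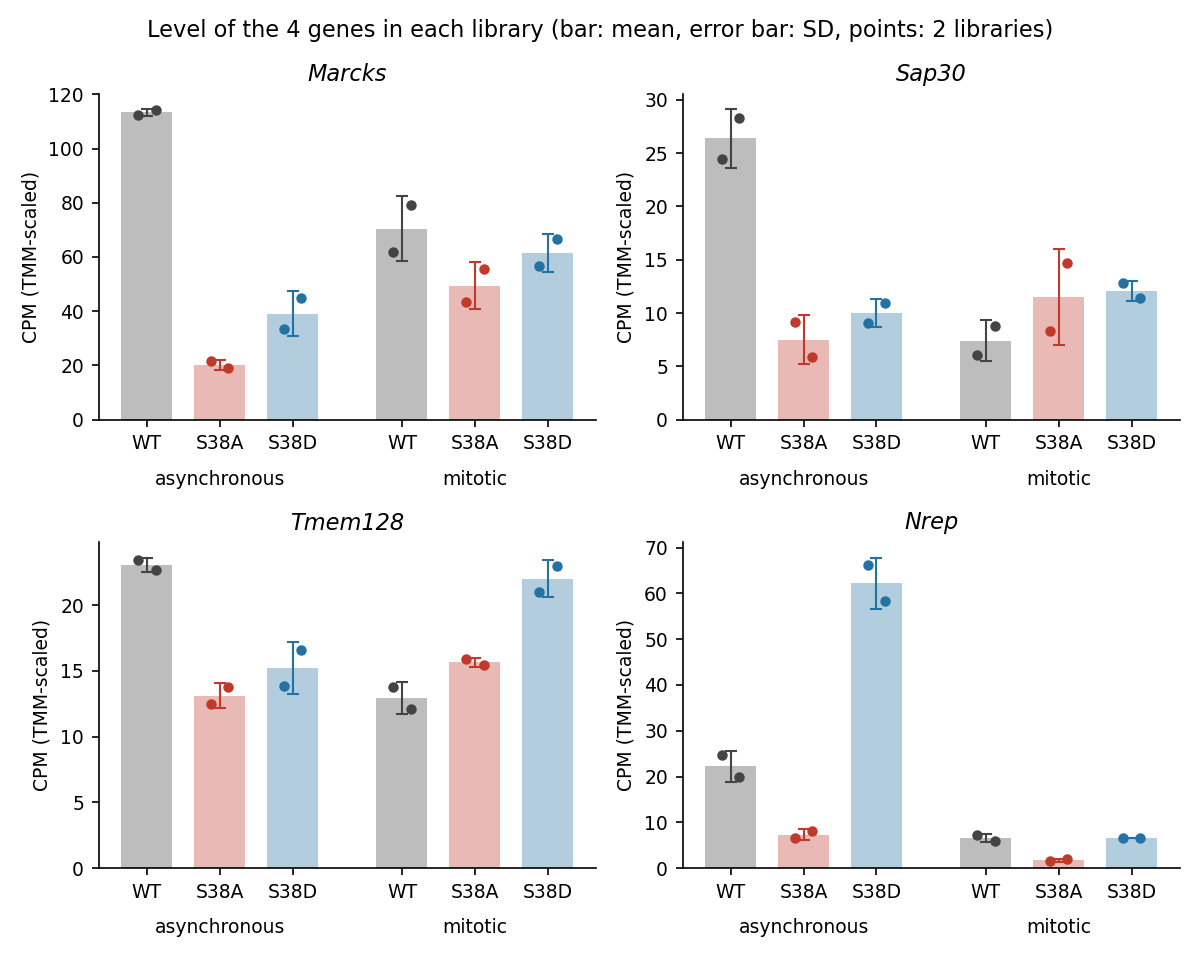
Level of Marcks, Sap30, Tmem128 and Nrep (y axes, CPM scaled by TMM) in the 6 groups, with bars for the mean of 2 libraries, error bars for the SD and points for the libraries. Marcks, Sap30 and Tmem128 were at 113, 26.4 and 23.1 CPM in WT asynchronous cells, their highest group means, and Nrep peaked at 62.3 CPM in S38D asynchronous cells.

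Marcks RNA was abundant in asynchronous WT cells and low in those of both mutant lines. Among mitotic cells the 3 lines lay closer together, with the S38A libraries below those of WT and S38D. In asynchronous cells the WT libraries had 112 and 114 CPM, the S38A libraries 21.6 and 19.0 CPM, and the S38D libraries 33.3 and 44.9 CPM. In mitotic cells they had 62.0 and 79.0 CPM in WT, 43.4 and 55.5 CPM in S38A, and 56.6 and 66.5 CPM in S38D. The WT value was thus lower in mitotic than in asynchronous libraries, and both mutant values were higher, with no overlap between states in any line. The group means came in the order WT asynchronous (113 ± 1.26 CPM, SD, n = 2), WT mitotic (70.5 ± 12.0 CPM), S38D mitotic (61.6 ± 6.96 CPM), S38A mitotic (49.4 ± 8.55 CPM), S38D asynchronous (39.1 ± 8.22 CPM) and S38A asynchronous (20.3 ± 1.85 CPM). The WT and S38D mitotic groups overlapped, and so did the S38A mitotic and S38D asynchronous groups. In bulk RNA, fewer cells with a transcript and less of it per cell cannot be told apart.

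The fitted mitotic change of Marcks was -0.69 for WT (log2, SE 0.171), whereas S38A gave 1.28 (SE 0.183) and S38D 0.66 (SE 0.175). Against WT, the S38A line was at -2.48 (SE 0.185) in asynchronous cells, a 5.58-fold lower level, and at -0.51 (SE 0.174) in mitotic cells. The S38D line was at -1.54 (SE 0.176) and -0.19 (SE 0.172). The lines therefore differed from WT mainly in asynchronous culture. The mitotic change of S38A exceeded that of WT by 1.97 (SE 0.251), that of S38D by 1.34 (SE 0.245), and the S38D change was 0.63 below that of S38A (difference -0.63, SE 0.253). Scaled to spike-ins, the WT asynchronous mean was 146 ± 17.4 CPM (SD, n = 2) against 67.0 ± 12.7 CPM in the next group, so it remained the highest under either scaling.

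Averaged over both states, Marcks fell in both mutant lines. S38A differed from WT by -1.49 (SE 0.126; edgeR quasi-likelihood test, adjusted p = 3.38e-07), and all 4 S38A libraries lay below all 4 WT libraries. S38D differed from WT by -0.86 (SE 0.123, adjusted p = 0.000185), with some overlap between libraries, and from S38A by 0.63 (SE 0.127, adjusted p = 0.00179). These calls held under each of the 22 alternatives, with an adjusted p of at most 1.8e-05, 0.00433 and 0.0152. The mean mitotic change over the lines was 0.42 (SE 0.102, adjusted p = 0.00346), an average of a negative value in WT and positive values in the mutants. It was 0.23 (adjusted p = 0.157) under spike-in scaling, and its adjusted p lay between 8.82e-05 and 0.157 over the 21 alternatives.

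Sap30 was high in asynchronous WT cells alone. Its WT asynchronous libraries had 24.4 and 28.3 CPM (125 and 100 reads). The other 10 libraries had between 5.86 and 14.7 CPM (32 to 83 reads). In asynchronous cells S38A had 9.14 and 5.86 CPM and S38D 9.07 and 10.96 CPM, and in mitotic cells WT had 6.05 and 8.78 CPM, S38A 8.32 and 14.7 CPM, and S38D 12.8 and 11.4 CPM. Below the WT asynchronous mean of 26.4 ± 2.76 CPM, the group means ran from S38D mitotic (12.1 ± 0.959 CPM, SD, n = 2) through S38A mitotic (11.5 ± 4.52 CPM), S38D asynchronous (10.0 ± 1.33 CPM) and S38A asynchronous (7.5 ± 2.32 CPM) to WT mitotic (7.41 ± 1.93 CPM). Each of these 5 groups overlapped its neighbours in that order, while none reached the WT asynchronous libraries. Scaled to spike-ins, the WT asynchronous mean was 34.3 ± 7.24 CPM (SD, n = 2).

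The fitted mitotic change of Sap30 was -1.83 for WT (SE 0.289), whereas S38A gave 0.61 (SE 0.292) and S38D 0.27 (SE 0.285). The approximate 95% intervals of both mutant values included 0, from -0.01 to 1.23 for S38A and from -0.33 to 0.88 for S38D. The S38A libraries of the 2 states overlapped, and that line's value was 0.12 without S38A mitotic replicate 2, 0.94 without S38A mitotic replicate 1 or S38A asynchronous replicate 1, and 0.32 without S38A asynchronous replicate 2. The S38D value was 0.14 without S38D asynchronous replicate 1, 0.18 without S38D mitotic replicate 1 and 0.16 under spike-in scaling, where the S38D libraries of the 2 states overlapped. In asynchronous cells S38A was below WT (difference -1.80, SE 0.281), and so was S38D (-1.39, SE 0.273). In mitotic cells both fitted values were above it, by 0.65 (SE 0.301) and 0.71 (SE 0.302). The S38A and WT mitotic libraries overlapped, however. The approximate 95% intervals ran from 0.008 to 1.28 for S38A and from 0.07 to 1.35 for S38D. The S38A mitotic change exceeded that of WT by 2.45 (SE 0.411), and the S38D change by 2.11 (SE 0.406).

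Averaged over states, the difference of Sap30 between S38A and WT was -0.58 (SE 0.207; edgeR adjusted p = 0.0469), just inside the threshold. It missed the threshold in 11 of 22 alternatives, and over all of them the adjusted p ran from 0.0119 to 0.237. Among these were the fits without WT asynchronous replicate 1 or 2, S38A asynchronous replicate 2, WT mitotic replicate 2, S38A mitotic replicate 1 or S38D mitotic replicate 1 or 2 (adjusted p of 0.0739, 0.14, 0.2, 0.237, 0.206, 0.0768 and 0.0641). S38D against WT gave -0.34 (SE 0.204, adjusted p = 0.345), with an approximate 95% interval from -0.77 to 0.09. S38D against S38A gave 0.24 (SE 0.204, adjusted p = 0.445, interval from -0.20 to 0.67). The mean mitotic change was -0.32 (SE 0.167, adjusted p = 0.141), and it was -0.49 (adjusted p = 0.0476) under spike-in scaling and -0.47 with an adjusted p = 0.038 without S38A mitotic replicate 2.

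Tmem128 varied less than the other 3 genes, and its highest levels were in asynchronous WT and in mitotic S38D cells. In asynchronous cells it had 23.5 and 22.7 CPM in WT, 12.4 and 13.8 CPM in S38A, and 13.8 and 16.6 CPM in S38D. In mitotic cells it had 13.8 and 12.1 CPM in WT, 15.9 and 15.4 CPM in S38A, and 21.0 and 23.0 CPM in S38D. WT mitotic libraries lay below WT asynchronous ones and the mutant mitotic libraries above their asynchronous ones, without overlap, on 55 to 127 reads per library. The means of WT asynchronous (23.1 ± 0.56 CPM, SD, n = 2) and S38D mitotic cells (22.0 ± 1.41 CPM) came from overlapping libraries, and were followed by S38A mitotic (15.7 ± 0.344 CPM), S38D asynchronous (15.2 ± 1.96 CPM), S38A asynchronous (13.1 ± 0.953 CPM) and WT mitotic (12.9 ± 1.22 CPM). Of these 4, the first pair overlapped, and so did the last pair. Scaled to spike-ins the 2 highest groups were apart, at 29.8 ± 2.49 CPM and 20.2 ± 0.417 CPM (SD, n = 2).

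The fitted mitotic change of Tmem128 was -0.83 for WT (SE 0.187), whereas S38A gave 0.26 (SE 0.185) and S38D 0.53 (SE 0.18). The approximate 95% interval of the S38A value, from -0.14 to 0.65, included 0. Without S38A asynchronous replicate 1 the S38A value was 0.15. Against WT, S38A was at -0.82 (SE 0.184) in asynchronous and 0.27 (SE 0.189) in mitotic cells, and S38D at -0.60 (SE 0.182) and 0.76 (SE 0.185). The sign of the fitted line difference was thus opposite in the 2 states. For S38A in mitotic cells, though, the approximate 95% interval ran from -0.13 to 0.67 and included 0. The S38A mitotic change exceeded that of WT by 1.09 (SE 0.263), and the S38D change by 1.37 (SE 0.26). Averages over states or lines that include WT were small, since these opposite values cancel in them. S38D minus S38A had the same sign in both states, at 0.21 (SE 0.185) in asynchronous and 0.49 (SE 0.18) in mitotic cells. The mean mitotic change was -0.01 (SE 0.106, edgeR adjusted p = 0.929, approximate 95% interval from -0.24 to 0.21), S38A against WT gave -0.27 (SE 0.132, adjusted p = 0.143) and S38D against WT gave 0.08 (SE 0.13, adjusted p = 0.778, interval from -0.19 to 0.36). S38D against S38A gave 0.35 (SE 0.129, adjusted p = 0.0569), which was inside the threshold without S38D asynchronous replicate 1 (adjusted p = 0.0285), with the 10 CPM filter (0.0372) with robust estimation off (0.0494) and without both S38D asynchronous replicate 1 and WT mitotic replicate 1 (0.0229). S38A against WT was -0.49 (adjusted p = 0.0316) under spike-in scaling.

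**Figure D2:**
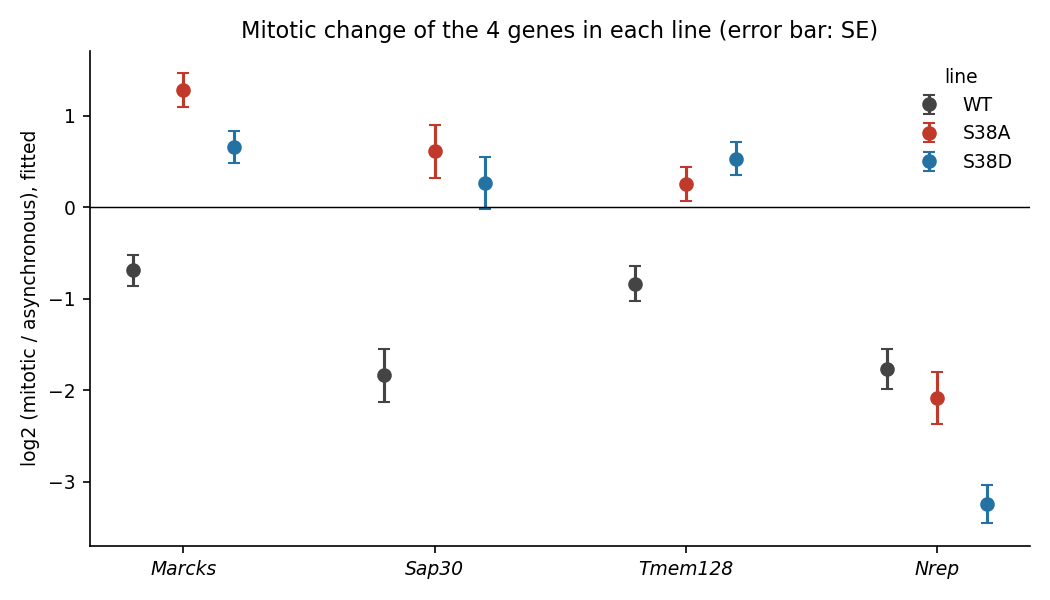
Fitted mitotic change of each gene (y axis, log2 of mitotic over asynchronous) in the WT, S38A and S38D lines, with the SE as error bar and 2 libraries per group. Marcks, Sap30 and Tmem128 lie below 0 in WT (-0.69, -1.83 and -0.83) and above 0 in both mutant lines, while Nrep lies below 0 in all 3 and lowest in S38D (-3.24).

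Nrep followed another pattern: its RNA was lower in mitotic cells of every line, and its level in asynchronous cells differed widely between lines. The gene lies on chromosome 18 from 33437019 to 33464029 (GRCm38, minus strand) with 5 exons, and 2 other genes, Gm38577 and Serpina10, share 1 of its 3955 words each. Asynchronous S38D libraries had 66.2 and 58.3 CPM (416 and 330 reads), WT 24.6 and 19.8 CPM (126 and 70 reads) and S38A 6.46 and 8.1 CPM (41 and 47 reads). Mitotic libraries had 6.52 and 6.59 CPM in S38D, 7.18 and 5.92 CPM in WT, and 1.45 and 1.95 CPM in S38A (8 and 11 reads). The asynchronous groups did not overlap each other. In mitotic cells WT and S38D overlapped at 6.55 ± 0.887 CPM and 6.56 ± 0.0487 CPM (SD, n = 2), the S38A asynchronous group (7.28 ± 1.16 CPM) overlapped both, and S38A mitotic cells had the lowest level, 1.7 ± 0.356 CPM.

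The fitted mitotic change of Nrep was -1.76 for WT (SE 0.218), whereas S38A gave -2.08 (SE 0.287) and S38D -3.24 (SE 0.208), a 9.47-fold lower level in mitotic S38D cells. The S38D change was 1.48 below that of WT (difference -1.48, SE 0.304), and the S38A change differed from that of WT by -0.32 (SE 0.364), a value that became 0.13 under spike-in scaling. S38A was below WT in both states, by similar amounts (-1.62, SE 0.209, and -1.94, SE 0.297). S38D was above WT in asynchronous cells (1.48, SE 0.185) and at -0.00 (SE 0.241) in mitotic cells, with an approximate 95% interval from -0.52 to 0.51.

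Over the 3 lines Nrep fell in mitotic cells (log2 change -2.36, SE 0.137; edgeR adjusted p = 2.52e-09), and within each line both mitotic libraries lay below both asynchronous ones. This was the 20th most negative of 10477 values. Averaged over states, S38A differed from WT by -1.78 (SE 0.181, adjusted p = 2.64e-06), S38D from WT by 0.74 (SE 0.152, adjusted p = 0.00505) and S38D from S38A by 2.51 (SE 0.176, adjusted p = 5.66e-08). All these calls held under each alternative, the highest adjusted p being 0.0458 for S38D against WT. The mean for S38D against WT combines a difference in asynchronous cells with a value near 0 in mitotic cells.

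**Figure D3:**
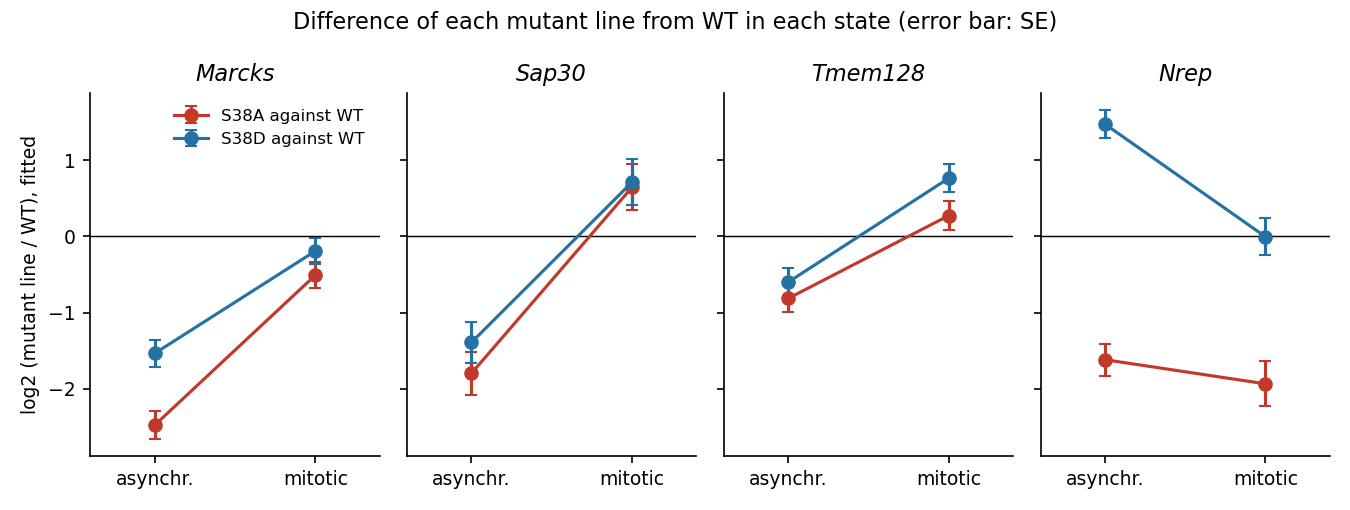
Fitted difference of the S38A and S38D lines from WT (y axis, log2) in asynchronous and mitotic cells for each gene, with the SE as error bar and 2 libraries per group. For Marcks the S38A difference goes from -2.48 to -0.51, for Sap30 and Tmem128 both fitted differences change sign, and for Nrep the S38D difference goes from 1.48 to -0.00 while S38A stays below WT. In mitotic cells the Sap30 libraries of S38A and WT overlap, and the approximate 95% interval of Tmem128 in S38A includes 0.

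The calls among the 4 genes are given beside those over all genes as a description, because the same libraries chose the genes. In the mean mitotic change 2 of the 4 were called (Marcks higher, Nrep lower), where edgeR called 42.1% of 10477 genes. For S38A against WT 3 of 4 were called, all lower, against 28.6% of genes, for S38D against WT 2 of 4 against 9.83%, and for S38D against S38A 2 of 4 against 24.7%. The 1030 genes called for S38D against WT became 2146 without S38D asynchronous replicate 2, and between 613 and 649 without either WT asynchronous or either S38D mitotic replicate. For the differences in mitotic change that chose the genes, edgeR called 0.993% of all genes in the S38A comparison with WT and 0.401% in that of S38D. The place of the 4 genes among those was fixed by the choice, and nothing is read from it. Under spike-in scaling the median over all genes moved by -0.18 (log2) for the mean mitotic change, by -0.22 and -0.21 for S38A and S38D against WT over both states, and by 0.46 and 0.33 in the S38A and S38D differences in mitotic change.

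Across the 12 libraries, the log2 CPM of Sap30 correlated with that of Tmem128 at a Pearson r of 0.76 and with that of Marcks at 0.71, Marcks with Tmem128 at 0.63, and Nrep with the other 3 at 0.07 to 0.24. These points share libraries and groups and are a description. The genes were chosen on their differences in mitotic change, so likeness among them may follow from that choice. Among 6832 genes with at least 10 CPM, the genes most like Marcks were Pgrmc1, a haem-binding membrane protein (r = 0.97), the sterol exporter gene Abcg1 (0.95) and the histone methyltransferase gene Setdb1 (0.95). Abcg1 had a mitotic change of -0.64 in WT, 0.55 in S38A and 0.69 in S38D. For Sap30 they were the ribosome maturation gene Sbds (0.94), the ubiquitin ligase scaffold gene Cul5 (0.92) and Arhgap19 (0.92), whose mitotic change was -1.96 in WT against 0.56 in S38A and 0.14 in S38D. The genes most like Tmem128 were the casein kinase gene Csnk1a1 (0.88), the mitochondrial exoribonuclease gene Pnpt1 (0.86) and the ER chaperone gene Hspa5 (0.86), and Csnk1a1 had changes of -0.36 in WT, 0.04 in S38A and 0.12 in S38D. The genes most like Nrep were the p53 target Zmat3 (0.96), the cytokine gene Tgfb1 (0.95) and Mien1 (0.95), all with smaller changes: Tgfb1 was at -0.33 in WT, -0.90 in S38A and -0.87 in S38D.

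**Figure D4:**
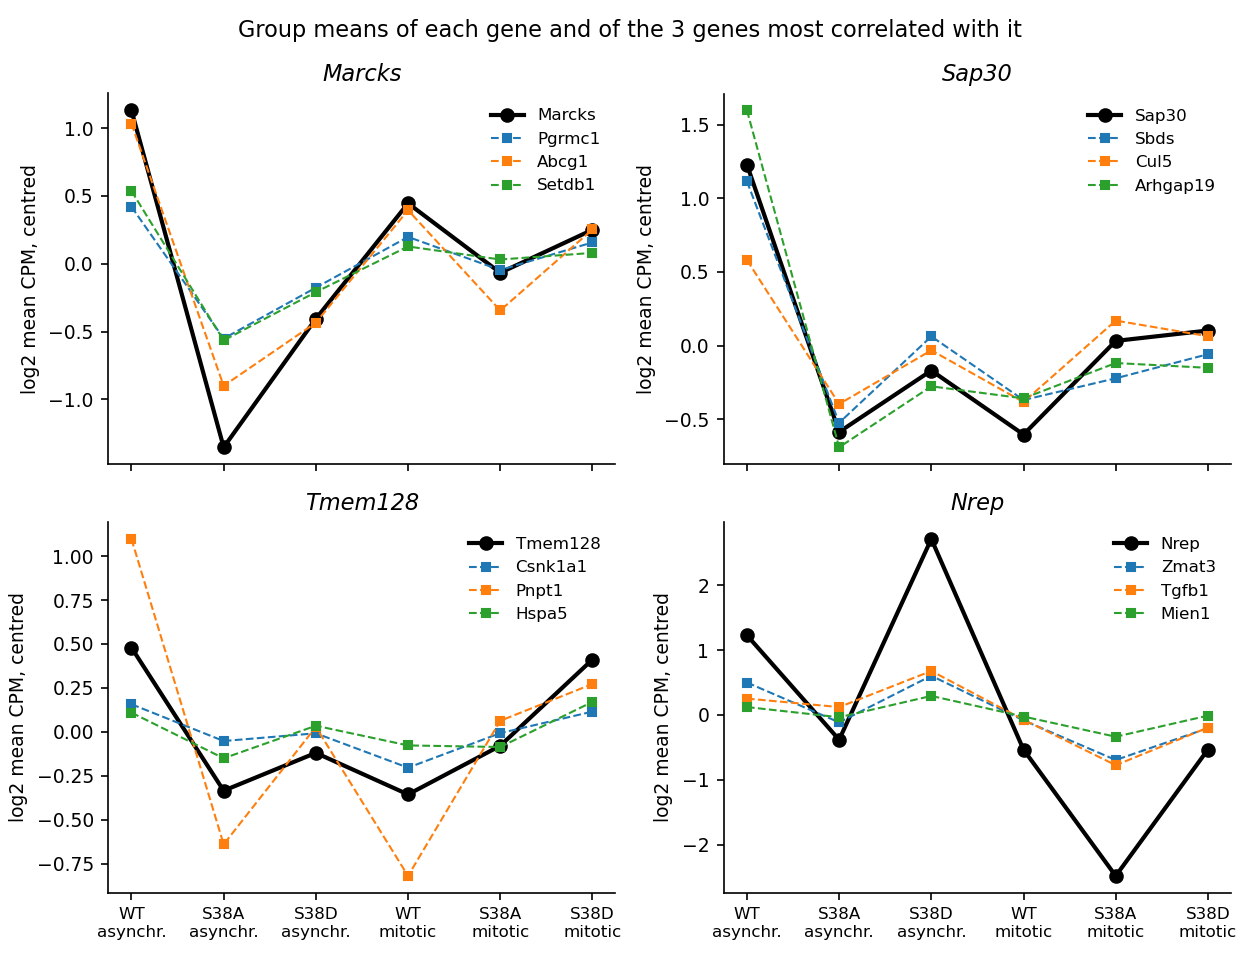
Group means of each of the 4 genes (black) and of the 3 genes most correlated with it over 12 libraries, among the 6832 searched (colours), as log2 mean CPM centred on the mean of the 6 groups (y axes). The 3 genes beside Marcks, Sap30 and Nrep had r from 0.92 to 0.97, and those beside Tmem128 from 0.86 to 0.88.

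The paralogs of Marcks and Sap30 and the nearest tested genes were described in the same way. Marcksl1, the other MARCKS family gene, had edgeR adjusted p-values of 0.235 to 0.576 in the 4 tested comparisons (mean mitotic change 0.11, SE 0.0819, adjusted p = 0.311), and its mitotic change lay between -0.01 and 0.30 in the 3 lines. Sap30l, the paralog of Sap30, rose in mitotic cells by 0.42 (SE 0.0735, adjusted p = 0.000259), with 0.74 in WT, 0.22 in S38A and 0.30 in S38D, so its WT value had the opposite sign to that of Sap30. Beside Marcks, the nearest tested gene was Hdac2, which encodes a deacetylase of the SIN3-HDAC complex and lies 131485 bases away. Hdac2 had a mitotic change of -0.58 in WT, 0.40 in S38A and 0.18 in S38D, the same signs as Marcks in each line. Its S38A difference from WT, averaged over states, was negative as for Marcks (-0.38, SE 0.116, edgeR adjusted p = 0.0232). That average came from asynchronous cells, where Hdac2 fell from a WT mean of 93.6 CPM to 51.2 CPM with S38A. Among mitotic groups its S38A mean (67.6 CPM) was above the WT mean (62.5 CPM), whereas Marcks was lower in S38A there too. On the other side, Fam229b lay 1979883 bases away, with changes of 0.10 in WT, 0.32 in S38A and -0.12 in S38D.

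The start of 2500002B13Rik, a gene on the opposite strand, lies 193 bases from that of Sap30, inside the window printed above. It had changes of 0.30 in WT, 0.26 in S38A and 0.31 in S38D at a mean of 2.83 CPM. The other neighbour of Sap30, the F-box gene Fbxo8, was at -0.50, -0.05 and 0.27. Beside Tmem128, the nucleolar protein gene Lyar rose in mitotic cells by 0.59 (SE 0.0745, edgeR adjusted p = 9.96e-06), with positive values in all 3 lines, and the urate transporter gene Slc2a9 was at -0.57 (SE 0.199, adjusted p = 0.0301). Beside Nrep, the sterol transport gene Stard4 had a mean mitotic change of -0.15 (SE 0.094, adjusted p = 0.227) and fell in S38D against WT (-0.56, SE 0.116, adjusted p = 0.00533), and the noncoding gene Epb41l4aos had a mean mitotic change of 0.24 (SE 0.0629, adjusted p = 0.0061), against -2.36 for Nrep itself. In S38A against WT both fell, as Nrep did (Stard4 at -0.33, SE 0.115, adjusted p = 0.0387, and Epb41l4aos at -0.66, SE 0.0775, adjusted p = 1.09e-05).

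The partners of these proteins were described by lists whose counts here leave out the 4 genes. The counts rest on averages over lines or states, so they do not show whether a mitotic change differed between lines. Of 18 genes for MARCKS family, protein kinase C, phospholipase C and PIP2 enzymes and related genes, 1 rose and 3 fell in the mean mitotic change, where edgeR called 42.1% of all genes, 2145 higher and 2262 lower. Their median was -0.16 against -0.02 over all genes. Prkce, a protein kinase C gene, fell (log2 change -0.73, SE 0.086, edgeR adjusted p = 5.33e-06) and Pip5k1a, which makes PIP2, rose by 0.37 (SE 0.0721, adjusted p = 0.000655). In S38A against WT 6 of the 18 rose, beside 28.6% of all genes called (1620 higher, 1372 lower). Of 28 cortical actin genes 2 rose and 8 fell in mitotic cells (median -0.14), among them Msn, which links membrane and actin (-0.80, SE 0.0803, adjusted p = 1.01e-06), and Coro1b, an actin regulator (-0.74, SE 0.0849, adjusted p = 3.97e-06). In S38A against WT 10 of these rose and 3 fell, with a median of 0.13 that was -0.09 under spike-in scaling.

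Of 16 other SIN3-HDAC genes, 4 rose and 2 fell in the mean mitotic change, beside the 42.1% called over all genes. Their median was -0.09, and with Sap30 counted in it was -0.11, or -0.29 under spike-in scaling. The genes that rose include Ing2, which reads a histone mark for the complex, at 0.40 (SE 0.0696, edgeR adjusted p = 0.000238) and Sap30l, given above. In S38A against WT 1 rose and 3 fell, where edgeR called 28.6% of all genes. In S38D against WT 1 fell, where it called 9.83%. Of 21 other TGF-beta and SMAD genes, 6 rose and 2 fell in mitotic cells, with a median of 0.08, which with Nrep counted in was 0.06 and became -0.11 under spike-in scaling. Tgfb1, the ligand gene, fell (log2 change -0.70, SE 0.0851, adjusted p = 7.3e-06) and Smad4, the shared signal transducer, rose by 0.39 (SE 0.0855, adjusted p = 0.00176). In S38A against WT, beside 28.6% of all genes called, 2 of the 21 rose and 1 fell, Tgfb1 at -0.42 (SE 0.105, adjusted p = 0.00707). In S38D against WT Tgfb1 was at 0.15 (SE 0.103, adjusted p = 0.427). Of the 12 B cell markers 11 fell in mitotic cells, beside 42.1% of all genes called, with Vpreb3 at -2.34 and the coactivator gene Pou2af1 at -1.25. In S38A against WT 8 of these markers rose and 1 fell, beside 28.6% of all genes called. The part of these shifts in the values of the 4 genes was not tested.

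**Figure D5:**
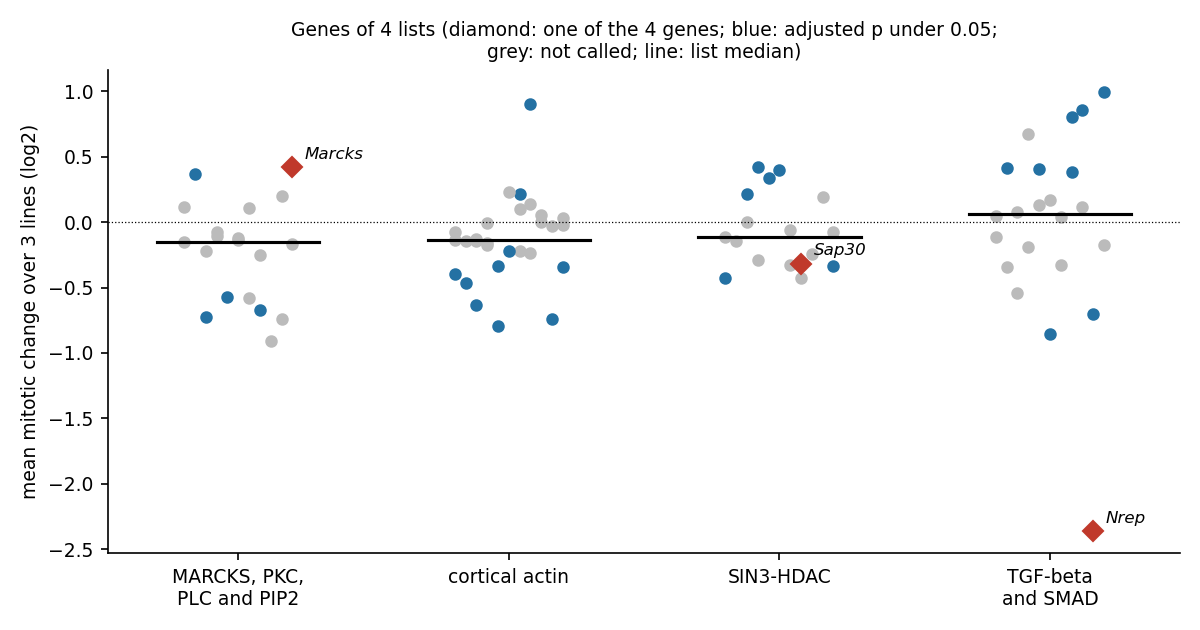
Mean mitotic change over the 3 lines (y axis, log2) of genes in 4 lists, with diamonds for Marcks, Sap30 and Nrep whether called or not, blue for other genes with an edgeR adjusted p under 0.05, grey for the rest and a line at the list median. Marcks (0.42) lies above the bulk of its list, Sap30 (-0.32) within its list, and Nrep (-2.36) far below every other gene shown.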

How the data were processed

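The 12 libraries are 3′ end RNA-seq of polyadenylated RNA, grouped by sample titles. The deposited files hold raw counts, whole numbers of reads for 51826 genes and 92 ERCC spike-ins, which the authors did not normalize. The submitters' processing notes list the build mm10 and the tools STAR 2.5.3a, cutadapt 1.12 and bcl2fastq 2.16.0.10. Not given in the sources used here are the counting program, its strand setting, its handling of reads with several matches, and the annotation.

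Symbols came from GENCODE M21 (GRCm38), matched for 51633 identifiers (99.63%), of which 47648 also matched in version. The fit used edgeR 4.0.16 in R 4.3.3 on 10477 genes that passed filterByExpr (minimum count 10), with TMM factors, a mean for each of 6 groups, robust quasi-likelihood F tests and Benjamini-Hochberg adjustment over all genes tested in each comparison. The SE is the log2 difference divided by the root of F. Approximate 95% intervals used the residual and median prior degrees of freedom.

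The 4 genes and the lists were chosen with earlier results of these data known. Differences in mitotic change chose the genes, so values of single lines and states carry no test. The tested comparisons are the mitotic change averaged over lines and the line differences averaged over states. Their coefficients are orthogonal to those differences in this balanced design. The choice used the same libraries and counts, so the p-values of the 4 genes may still not be independent of it. Beside the 4 genes, the text names Rpl12, the 2 members of each list with the smallest adjusted p in the mean mitotic change, and the paralogs Marcksl1 and Sap30l. It also names the nearest tested genes, the 3 most correlated genes and some cell type markers picked after their reads were seen. Alternatives were DESeq2 1.42.0, limma-voom (limma 3.58.1), DESeq2 size factors in edgeR, spike-in scaling, no filter, a 10 CPM filter in at least 2 libraries, robust estimation off, a replicate block, only the groups compared and each library left out. A later one, chosen after seeing the data, left out 2 libraries together.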

Additional observations from a re-analysis of the deposited data

Results flagged for a closer look

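Both libraries of 1 line moved one way between states and both libraries of another line the opposite way for 3 of the 4 genes. For Marcks this held in S38A against WT, where the mitotic changes differed by 1.97 (log2), and in S38D against WT, by 1.34. For Sap30 it held in S38D against WT, by 2.11, and not in S38A, whose libraries overlapped. Scaled to spike-ins the S38D libraries of Sap30 overlapped too, at 8.1 and 11.98 CPM in asynchronous and 12.4 and 9.85 CPM in mitotic cells. For Tmem128 it held in both, by 1.09 in S38A and 1.37 in S38D. These genes were chosen by these differences, so each is given as a description and its p is not used.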

How the results depend on the processing

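The 855 values under alternatives include totals of genes called beside the values of the 4 genes, and 790 were counted as unchanged. Values of the 4 genes counted so kept their direction and side of the threshold, or, where not tested, moved by less than 1 SD. Totals of genes called counted so stayed within a set ratio of the main total. Another 5 values changed sign. Where a value changed, the cause was not tested. Replicate numbers were not taken as pairs in the main fit. The log2 difference of replicate 2 from replicate 1 was correlated between groups over 7062 genes. Of 15 pairs of groups 3 correlated above 0.1 and 3 below -0.1, from -0.4 to 0.79. The WT mitotic, S38A mitotic and S38D asynchronous groups correlated with one another at 0.55 to 0.79. Each of them correlated with the S38A asynchronous group at -0.36 to -0.40. These groups thus shared a difference between replicates, with opposite sign in S38A asynchronous cells, whose cause was not tested. With the replicate block 4522, 3062, 1102 and 2666 genes were called in the mean mitotic change, the S38A and S38D comparisons with WT, and S38D against S38A, and no call of the 4 genes changed.

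DESeq2 called 1977, 649 and 1615 genes for S38A and for S38D against WT and for S38D against S38A, where edgeR called 2992, 1030 and 2590. Sap30 in S38A against WT was -0.58 in DESeq2 (adjusted p = 0.152), -0.59 with the 10 CPM filter (edgeR adjusted p = 0.0518), -0.58 with robust estimation off (0.0671) and -0.56 with only the 4 groups compared (0.0667). Tmem128 in S38D against S38A was 0.36 with the 10 CPM filter (0.0372), 0.35 with robust estimation off (0.0494) and 0.41 without both S38D asynchronous replicate 1 and WT mitotic replicate 1 (0.0229).

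Under spike-in scaling the mean mitotic change was 0.23 for Marcks (edgeR adjusted p = 0.157) and -0.49 for Sap30 (0.0476). Tmem128 was at -0.49 in S38A against WT (0.0316) and -0.13 in S38D against WT. The WT changes of Marcks, Sap30, Tmem128 and Nrep were -1.13, -2.28, -1.27 and -2.19, and the S38D change of Tmem128 was 0.41. The differences in mitotic change from WT were 2.44, 2.92, 1.54 and 0.13 in S38A, and in S38D 1.65 for Marcks, 1.68 for Tmem128 and -1.16 for Nrep.

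Without both S38D asynchronous replicate 1 and WT mitotic replicate 1, 3888 genes were called for S38D against S38A, the S38D change of Tmem128 was 0.41, the differences of Marcks from WT were 1.75 in S38A and 0.95 in S38D, and those of Sap30 and Nrep in S38D were 1.68 and -1.26.

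With 1 library left out at a time, the lone sample of its group being assumed to vary like the others, the mean mitotic change ran from -0.47 to -0.19 for Sap30 and from -0.066 to 0.029 for Tmem128. The latter was above 0 without S38A asynchronous replicate 2 (0.016), S38D asynchronous replicate 2 (0.029) or WT mitotic replicate 2 (0.012). Sap30 in S38A against WT ran from -0.80 to -0.39 and Tmem128 in S38D against S38A from 0.29 to 0.41. Genes called ran from 613 to 2146 for S38D against WT and from 1726 to 3303 for S38D against S38A. The S38A change ran from 1.07 to 1.43 for Marcks, from 0.12 to 0.94 for Sap30 and from -2.33 to -1.91 for Nrep, and it was 0.15 for Tmem128 without S38A asynchronous replicate 1. The S38D change ran from 0.46 to 0.88 for Marcks and from 0.41 to 0.66 for Tmem128, and it was 0.14 for Sap30 without S38D asynchronous replicate 1. The difference between S38A and WT changes ran from 1.73 to 2.13 for Marcks, 1.93 to 2.75 for Sap30, 0.96 to 1.14 for Tmem128 and -0.59 to -0.17 for Nrep, and that between S38D and WT from 1.24 to 1.47 for Tmem128. Sap30 and Nrep rest on as few as 32 and 8 reads in a library, which limits their precision.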

Other observations

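Some genes of the same lists, chosen after their values were seen, differed between lines. Prkca, a protein kinase C gene whose product phosphorylates MARCKS, rose in both mutant lines against WT over both states, by 0.95 for S38A (SE 0.131, edgeR adjusted p = 5.52e-05) and by 0.93 for S38D (SE 0.132, adjusted p = 0.000193), comparisons in which Marcks fell. Of the other protein kinase C genes tested, Prkce and Prkcz rose in S38A only (0.50 and 1.96, edgeR adjusted p = 0.00203 and 0.000716). Prkcd and Prkci were called in neither line. A link between these genes and Marcks was not tested. Arid4a, a subunit of the SIN3-HDAC complex, rose by 1.36 in S38A (SE 0.185, adjusted p = 4.76e-05), whereas S38D was at -0.00 (SE 0.192, adjusted p = 0.997), and S38D against S38A gave -1.36 (SE 0.182, adjusted p = 6.25e-05).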
